A study of Mus musculus with 12 samples.

Results

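Noncoding RNA catalogues list many mouse genes that have an identifier but no name and no known function. RNAcentral is a database that joins such catalogues, among them NONCODE, a collection of long noncoding RNAs. The genes gathered there can be transcripts without a known role, but they can also lie over structural RNAs such as 5S ribosomal RNA or the RNA parts of RNase P and RNase MRP, or over nuclear copies of mitochondrial genes. The values below describe the 200 genes of this kind that took the most reads in mouse brown adipose tissue, the fat that burns lipid to produce heat in the cold.

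The members were chosen by level. Of the 61210 genes in the count table, 27882 had the type noncoding and no Ensembl identifier, and 13626 of these had a count in any library. They were ordered by mean CPM (counts per 1e6 counts of the library) over all 12 libraries, and the first 200 were kept. Each carried 1 NONCODE identifier and 0 carried a gene name. They held 91.5% of the mean CPM of the 27882. The level is therefore a description and not a finding. It ran from 29192 CPM at rank 1 to 5.88 CPM at rank 200, with a median of 13.3, and 15 members exceeded 100 CPM. The last 5 members had 6.14, 6.12, 6.07, 6.04 and 5.88 CPM. The next 5 genes, just outside, had 5.88, 5.86, 5.86, 5.83 and 5.79 CPM. CPM is not scaled to gene length, so these levels are shares of the reads and rank no gene by its number of transcripts. A member can also have entered through only some of the libraries, where it was high. Its differences between groups then follow in part from this choice.

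The libraries were made from total RNA of iBAT of C57BL/6N wild type mice aged 20 weeks. The mice ate a control diet (NCD) or, from the age of 8 weeks, a high fat diet (HFD) for 12 weeks, and were kept at 22 °C or spent 24 h at 4 °C. Each of the 4 groups had 3 libraries, and no source used here says how many mice stand behind a library, so the p-values measure the spread between libraries. Replicates 1 and 2 of every group form batch 1 in the labels and replicate 3 forms batch 2. The design text spells iBAT as inguinal and the study as interscapular brown adipose tissue.

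Library totals ran from 15136861 to 46740702 counts, and all 200 members were among the 16737 genes that passed the filter on low counts. All 8 brown adipocyte markers were expressed, with a summed level of 6419 to 10926 normalized CPM at 22 °C and 15810.1 to 23441 at 4 °C. Most of this sum was Ucp1, with 3789 to 7966 CPM at 22 °C and 11625 to 18809.5 at 4 °C. Of the 8, 4 rose with cold on NCD and 3 on HFD past the threshold given below. The 8 skeletal muscle markers varied within every group, from 506 to 15782 summed CPM, and were highest in HFD 22 °C replicate 3. In tissue RNA, fewer cells of a type and less RNA per cell cannot be told apart. The table held 0 of the 37 mitochondrial genes of GENCODE M21 under their Ensembl identifiers. The same was true of its 1383 snRNA, 1507 snoRNA and 2202 miRNA genes.

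The table gives no position for the members, but its rows follow the genome. Of 33212 successive pairs of Ensembl genes on the same chromosome, 99.6% had starts that did not decrease. The Ensembl genes in the rows above and below a member therefore bracket it, and 199 of the 200 had such an interval on GRCm38, from the start of the gene above to the start of the gene below. The median interval was 84977 bases, so it is a hint of locus and not a position.

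The intervals of some members of highest level hold annotated structural RNA genes that matched no row of the table. Their sequences are printed to show which known RNAs lie there, in the transcript forms of GENCODE M21 on GRCm38, and are not the members' own sequences. Rmrp, the RNA of the RNase MRP enzyme that cuts ribosomal RNA precursors, lies at chr4:43492788-43493058 on the minus strand. It reaches into the 10819-base interval of QNCMUSG00038090 (rank 2) between Sit1 and Ccdc107. Capitals mark the 124 bases, positions 36 to 159 of the RNA, that lie opposite the Ccdc107 exon at chr4:43492900-43493023 on the plus strand.
Rmrp: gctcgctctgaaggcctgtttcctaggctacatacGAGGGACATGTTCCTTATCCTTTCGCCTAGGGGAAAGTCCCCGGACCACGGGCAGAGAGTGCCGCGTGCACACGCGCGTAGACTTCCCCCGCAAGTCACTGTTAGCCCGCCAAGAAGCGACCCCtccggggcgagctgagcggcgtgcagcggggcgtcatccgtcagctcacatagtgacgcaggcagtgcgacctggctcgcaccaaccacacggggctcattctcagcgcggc
Rpph1, the RNA of RNase P, which trims transfer RNA precursors, lies at chr14:50807449-50807767 on the minus strand, in the 18593-base interval of QNCMUSG00017288 (rank 3) between Ccnb1ip1 and Parp2. Positions 6 to 298 of its 319 bases are shown. Capitals mark the 233 bases it shares, on the same strand, with the Ccnb1ip1 exon at chr14:50807500-50807732.
Rpph1: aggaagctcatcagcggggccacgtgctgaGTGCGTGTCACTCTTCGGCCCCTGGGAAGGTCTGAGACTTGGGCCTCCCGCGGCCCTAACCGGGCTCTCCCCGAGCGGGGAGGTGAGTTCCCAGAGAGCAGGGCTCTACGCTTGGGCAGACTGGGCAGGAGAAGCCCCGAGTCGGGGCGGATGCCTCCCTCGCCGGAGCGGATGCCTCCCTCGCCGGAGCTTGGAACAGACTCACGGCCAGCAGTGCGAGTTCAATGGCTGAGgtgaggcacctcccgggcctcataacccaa

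A 5S-like gene lies in the interval of a pair of members that differed between the batches. Gm24222 (chr8:15412324-15412416, plus strand) is 1 of 5 unlisted genes in the 204640-base interval of QNCMUSG00052549 (rank 7). The microRNA genes Gm25871 and Gm25255 lie there too. Of the bases of Gm24222, 81.7% matched the closest of 180 5S genes, which encode an RNA of the large ribosomal subunit. It is shown without capitals.
Gm24222: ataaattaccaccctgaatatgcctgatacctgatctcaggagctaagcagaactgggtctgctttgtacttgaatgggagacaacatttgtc

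QNCMUSG00005395 (rank 20) is bracketed by Oaz1 and Lingo3 at chr10:80826656-80832801, where the 1 unlisted gene is Mir1982. Its mature forms lie between 80828808 and 80828870 on the plus strand, within Oaz1 (chr10:80826656-80829290, plus strand). Both mature forms are given from RefSeq (GRCm38.p6) to name the microRNA of this interval, with the seed, bases 2 to 8, in capitals.
mmu-miR-1982-5p: uUGGGAGGguccuggggagg
mmu-miR-1982-3p: uCUCACCCuauguucucccacag

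QNCMUSG00000336 took more reads than all other members together. It held 75.3% of the members' summed mean CPM, and the first 3 members held 82.3%. Its interval, chr1:24261890-24678630, lies between the collagen gene Col19a1 and Lmbrd1, which encodes a lysosomal vitamin B12 transporter. Within it, 7 unlisted pseudogenes between 24611535 and 24616197 were 98.8% to 100% identical to parts of mt-Nd4, mt-Nd4l, mt-Nd3, mt-Co3, mt-Atp6, mt-Co2 and mt-Co1. These genes encode subunits of the respiratory chain and of ATP synthase. Whether QNCMUSG00000336 counts mitochondrial reads was not tested.

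QNCMUSG00000336 had 34464, 29325 and 35744 CPM on NCD at 22 °C and 25365, 22894 and 24448 at 4 °C. It had 34293, 34067 and 34252 CPM on HFD at 22 °C and 29206, 25573 and 20393 at 4 °C. On either diet all 3 cold libraries were below all 3 at 22 °C. The difference was −0.45 ± 0.16 on NCD (log2 fold change ± SE, adjusted p = 0.107) and −0.45 ± 0.16 on HFD (adjusted p = 0.0877, quasi-likelihood test in edgeR, adjusted by Benjamini-Hochberg over all genes tested), so neither passed. All adjusted p-values of genes below come from this test.

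As a share of library counts the members took 3.95% ± 0.433 (SD, n = 3) on NCD at 22 °C and 3.10% ± 0.0549 at 4 °C. On HFD the share was 4.61% ± 0.243 at 22 °C and 3.85% ± 0.589 at 4 °C. Exact two-sided permutation tests of these shares gave p = 0.1 and 0.2 for cold on NCD and HFD, and 0.2 and 0.1 for HFD at 22 °C and 4 °C, all 0.2 after adjustment over the 4 tests. The smallest p that 3 against 3 libraries allow is 0.1. Without the first member the shares were 0.891% ± 0.171 and 0.885% ± 0.0230 on NCD and 1.03% ± 0.239 and 1.03% ± 0.118 on HFD, at 22 °C and 4 °C.

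**Figure D1:**
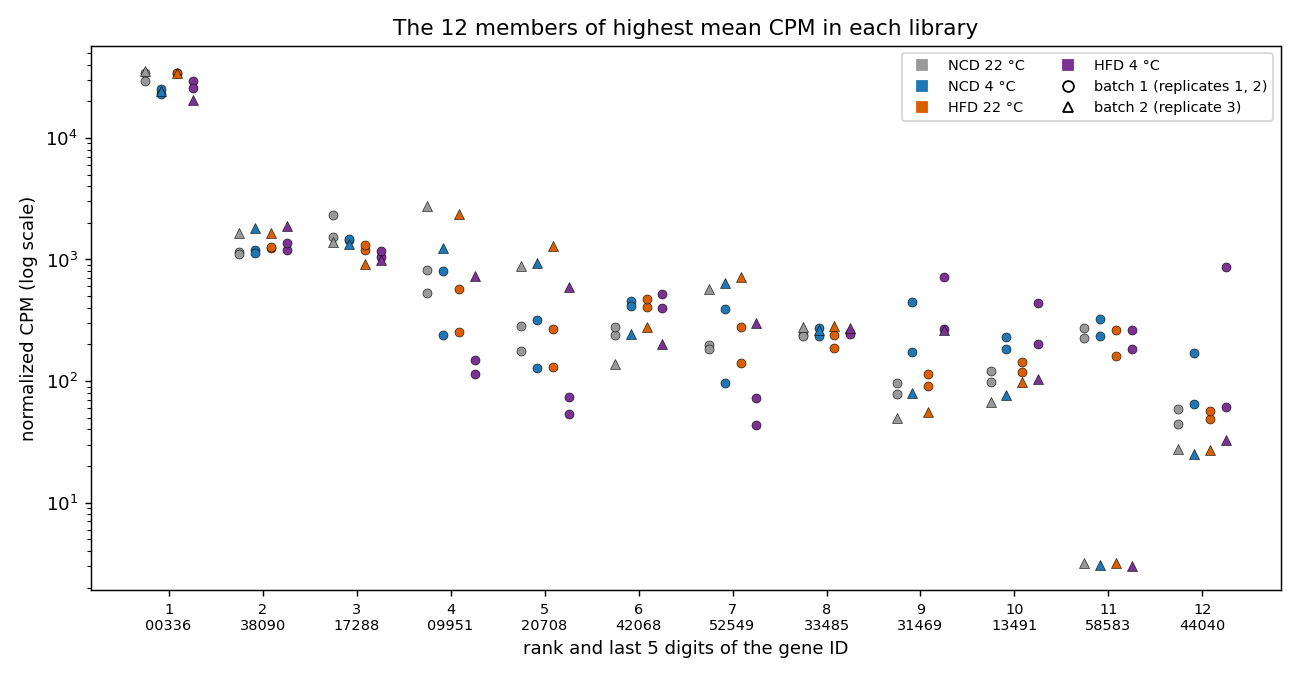
Normalized CPM on a log scale of the 12 members of highest mean CPM in each of the 12 libraries. Colours give the 4 groups, circles batch 1 and triangles batch 2. In ranks 4, 5 and 7 the triangles lie above the circles of their group, in rank 11 all 4 triangles lie near 3 CPM, and rank 12 has 1 library far above the rest.

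QNCMUSG00038090, at the Rmrp interval, had 1153, 1118 and 1637 CPM on NCD at 22 °C and 1199, 1123 and 1812 at 4 °C. It had 1243, 1268 and 1647 CPM on HFD at 22 °C and 1201, 1375 and 1881 at 4 °C. Replicate 3 was the highest in every group, and the groups overlapped in all 4 contrasts. Its largest difference between groups was 0.11 ± 0.24.

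QNCMUSG00017288, at the Rpph1 interval, had 1541, 2333 and 1388 CPM on NCD at 22 °C and 1435, 1470.3 and 1341 at 4 °C. It had 1189, 1312 and 912 CPM on HFD at 22 °C and 1054, 1171 and 987 at 4 °C. The HFD libraries were below the NCD libraries at both temperatures, but the differences of −0.62 ± 0.19 at 22 °C (adjusted p = 0.123) and −0.40 ± 0.19 at 4 °C (adjusted p = 0.247) did not pass. Ccnb1ip1, the gene whose exon shares bases with Rpph1, differed by −0.19 and −0.49 in the same contrasts.

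QNCMUSG00033485 (rank 8), in front of Epb41l1, ran from 186 to 281 CPM over all libraries and passed in no contrast. QNCMUSG00013491 (rank 10) has an interval on chromosome 13 that holds 9 unlisted histone genes. It had 97.7, 119.97 and 67.7 CPM on NCD at 22 °C and 183, 229 and 77.1 at 4 °C. It had 119, 144 and 97.99 CPM on HFD at 22 °C and 439, 200.1 and 104 at 4 °C. Its highest value was in HFD 4 °C replicate 1, and no contrast passed.

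The batches of the labels separated the members more often than genes in general. This comparison was chosen once the values were known. Members were ranked by mean CPM over all libraries, so a gene high in 1 batch could enter through it. In batch 2, QNCMUSG00012139, QNCMUSG00058583, QNCMUSG00052548, QNCMUSG00044662 and QNCMUSG00030493 had at most 3.55 normalized CPM, under the 5.88 CPM of rank 200. The shares that follow therefore depend in part on the choice of members. With batch as a term in the model, 19 members differed between batches (9.50% of them), against 1.43% of all genes tested. Of these, 6 were higher in batch 2 (background 0.221%) and 13 lower (background 1.21%). Here and below, except in the 4 contrasts with DESeq2, a gene passed with an adjusted p under 0.05 together with a log2 fold change beyond 0.5 in size. In 19 members the 8 libraries of batch 1 did not overlap the 4 of batch 2, which was 9.50% of the members and 1.85% of all genes. What distinguishes the batches is not given in the sources used here. Library totals also split by batch, with 15136861 to 21026727 counts in batch 1 and 34067515 to 46740702 in batch 2. The part of depth in these differences was not tested. Without HFD 4 °C replicate 3 the number of members that passed was 12.

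**Figure D2:**
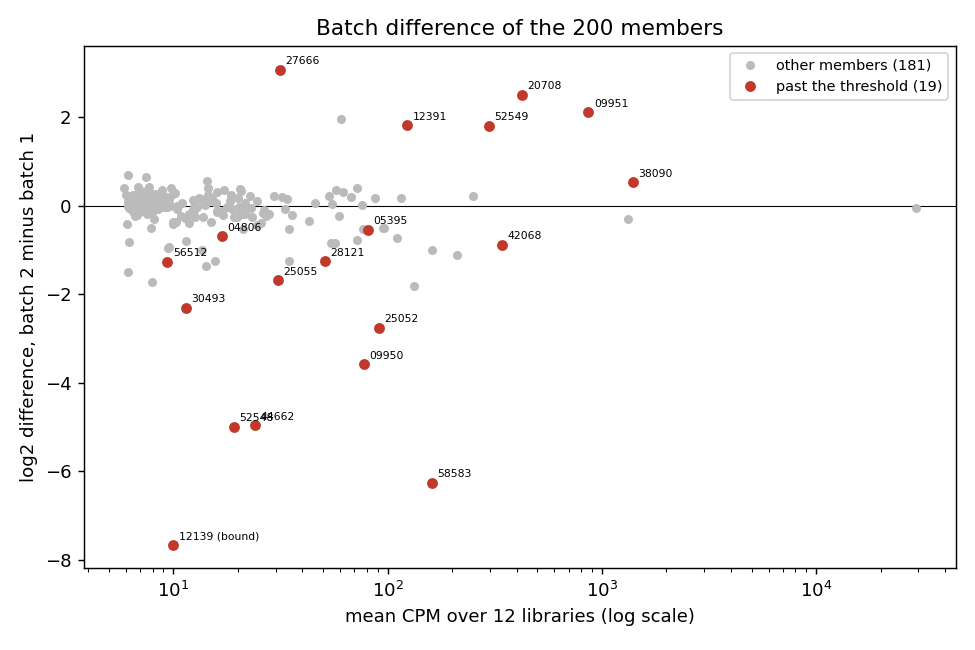
Log2 difference between batch 2 and batch 1 of the 200 members against their mean CPM on a log scale, with the 19 members past the threshold marked. QNCMUSG00012139 is drawn at the bound set by 3 counts per library. The marked members lie on both sides of 0, from −6.26 for QNCMUSG00058583 and lower to 3.07 for QNCMUSG00027666.

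The deepest falls in batch 2 were shared by members on different chromosomes. QNCMUSG00058583 (rank 11, between Cdcp1 and Gm47162 on chromosome 9) had 274, 225 and 3.21 CPM on NCD at 22 °C and 234, 321 and 3.05 at 4 °C. It had 161, 265 and 3.19 CPM on HFD at 22 °C and 184, 261 and 3.03 at 4 °C. In batch 2 the 4 groups ran from 3.03 to 3.21 CPM, while no library of batch 1 was under 161 CPM. The difference was −6.26 ± 0.22 (adjusted p = 7.08e-07).

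QNCMUSG00044662 (rank 55, chromosome 6) had 19.6 to 48.7 CPM in batch 1 and 0.900 to 1.67 in batch 2. QNCMUSG00052548 (rank 72, chromosome 8) had 17.5 to 45.8 CPM and 0.513 to 1.18 CPM. In batch 1 the counts of QNCMUSG00058583 were 6.13 to 8.23 times those of QNCMUSG00044662, 7.02 to 9.31 times those of QNCMUSG00052548 and 1.92 to 2.49 times those of QNCMUSG00009950 (rank 21, chromosome 11). The same ratios were 1.93 to 3.42, 2.63 to 5.91 and 0.221 to 0.494 in batch 2. These 3 ratios had ranges that did not overlap between the batches. The ratio of QNCMUSG00044662 to QNCMUSG00052548 did overlap, with 1.06 to 1.42 in batch 1 and 0.776 to 2.14 in batch 2.

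QNCMUSG00012139 (rank 121) had 0 counts in all 4 libraries of batch 2 and 6.77 to 27.1 CPM in batch 1. Against a floor of 3 counts per library it was at least 201.5-fold lower in batch 2. Its neighbours, the kinase gene Nek9 and Tmed10, which acts in vesicle transport, differed by 0.11 and −0.02 between batches.

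Of the 9 pairs of members within 3 rows of each other, 2 held members that both passed between batches and went opposite ways. QNCMUSG00009950, in the row next to QNCMUSG00009951 (rank 4), had 64.9 to 168 CPM in batch 1 and 6.13 to 14.5 in batch 2 (−3.58 ± 0.30). QNCMUSG00009951 itself had 114 to 818 CPM in batch 1 and 736 to 2769 in batch 2 (2.10 ± 0.33). In the 204640-base interval on chromosome 8 between Gm35392 and Gm35453, QNCMUSG00052548 was lower (−4.99 ± 0.28) and QNCMUSG00052549 higher (1.80 ± 0.32) in batch 2.

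In another pair, QNCMUSG00025052 and QNCMUSG00025055 on chromosome 17, both were lower in batch 2 (−2.76 ± 0.19 and −1.69 ± 0.16). They stand on both sides of the noncoding gene Gm26917, which was higher in batch 2 (0.69, adjusted p = 0.0424). QNCMUSG00005395, between Oaz1 and Lingo3, was lower too, with 67.7 to 108 CPM in batch 1 and 52.8 to 79.2 in batch 2 (−0.55 ± 0.10). Oaz1 differed by 0.24 between batches and did not pass (adjusted p = 0.277). For cold on NCD and HFD this member differed by 0.07 and −0.08, and Oaz1 by 0.07 and −0.10. For HFD at 22 °C and 4 °C it differed by −0.27 and −0.42, and Oaz1 by −0.35 and −0.53. None of these contrasts passed. QNCMUSG00038090, at the Rmrp interval, was higher in batch 2 (0.53 ± 0.08).

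Several of these members passed for cold or diet once batch was a term. QNCMUSG00020708 (rank 5, between Gm15569 and Tbc1d22a) had 281, 175 and 883 CPM on NCD at 22 °C and 319, 128 and 929 at 4 °C. It had 269, 130.3 and 1301 CPM on HFD at 22 °C and 54.02, 73.8 and 589.5 at 4 °C. In each batch the cold libraries on HFD were below those at 22 °C on HFD. The difference was −1.24 ± 1.10 without the batch term (adjusted p = 0.496) and −1.44 with it (adjusted p = 0.0442).

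With the batch term, QNCMUSG00009951, QNCMUSG00052549, QNCMUSG00012391 (rank 13) and QNCMUSG00027666 (rank 44) fell likewise with cold on HFD, with log2 fold changes of −1.67, −1.62, −1.14 and −1.53 (adjusted p = 0.0404, 0.0424, 0.0229 and 0.00963). None of these 4 passed without it. QNCMUSG00042068 (rank 6, chromosome 5) had 239, 279 and 139 CPM on NCD at 22 °C and 455, 412 and 244 at 4 °C. It had 409.96, 475 and 280.3 CPM on HFD at 22 °C and 399, 516 and 203 at 4 °C. It rose with cold on NCD by 0.77 (adjusted p = 0.0102) and with HFD at 22 °C by 0.86 (adjusted p = 0.0147) in the fit with batch, and passed in neither contrast without it.

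In the fit without a batch term, cold and diet changed about as large a share of the members as of all genes. With batch as a term, and with DESeq2, the members' share was above that of all genes in all 4 contrasts. Scaled by library totals alone, it was above only for HFD at 22 °C. The counts of these other fits are given below. With cold on NCD, 11 members passed (5.50% of them, against 6.27% of all genes tested), 7 higher and 4 lower (background 3.72% and 2.55%). With cold on HFD it was 18 (9.0% against 9.58%), 6 higher and 12 lower (background 5.39% and 4.19%). HFD at 22 °C changed 6 (3.0% against 2.09%), 5 higher and 1 lower (background 0.992% and 1.09%). HFD at 4 °C changed 8 (4.00% against 4.75%), 5 higher and 3 lower (background 2.06% and 2.69%). In the comparison of all 4 groups, with an adjusted p under 0.001, 5 members passed (2.50% against 2.55%): QNCMUSG00029696, QNCMUSG00022107, QNCMUSG00014423, QNCMUSG00052249 and QNCMUSG00056859.

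In all, 26 members passed in at least 1 of the 4 contrasts and 174 in none, and 0 of the 26 were among the 19 that differed by batch. The contrasts share groups and are not independent. The 3 libraries of 1 group lay wholly above or below those of the other in 47 and 52 members for cold on NCD and HFD (27.8% and 30.3% of all genes). The diets lay apart in this way in 56 members at 22 °C and 43 at 4 °C (25.9% and 25.2%).

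With batch as a term 18, 22, 8 and 14 members passed with cold on NCD and HFD and with HFD at 22 °C and 4 °C, in this order, against 7.07%, 10.3%, 2.34% and 5.48% of all genes. With replicates blocked inside each diet it was 22 for cold on NCD and 24 for cold on HFD, against 8.86% and 12.9%. QNCMUSG00003396 and QNCMUSG00033530 lost their calls for cold on HFD under this block (adjusted p = 0.0609 and 0.0768). DESeq2 called 21, 36, 21 and 15, against 8.09%, 12.0%, 5.05% and 7.28% of all genes, and 25 in the comparison of all groups (15.7%). Scaled by library totals alone, 10 members passed for cold on NCD (6.12% of all genes) and 20 for cold on HFD (11.4%), the latter 10 higher and 10 lower. In this scaling HFD raised 18 and lowered 1 at 22 °C, against 4.73% of all genes called, and raised 20 and lowered 2 at 4 °C, against 14.6%. It also moved the median over all genes to 0.22 and 0.31 for HFD, with 75.9% and 79.5% of all genes higher, and to 0.06 for cold on HFD.

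**Figure D3:**
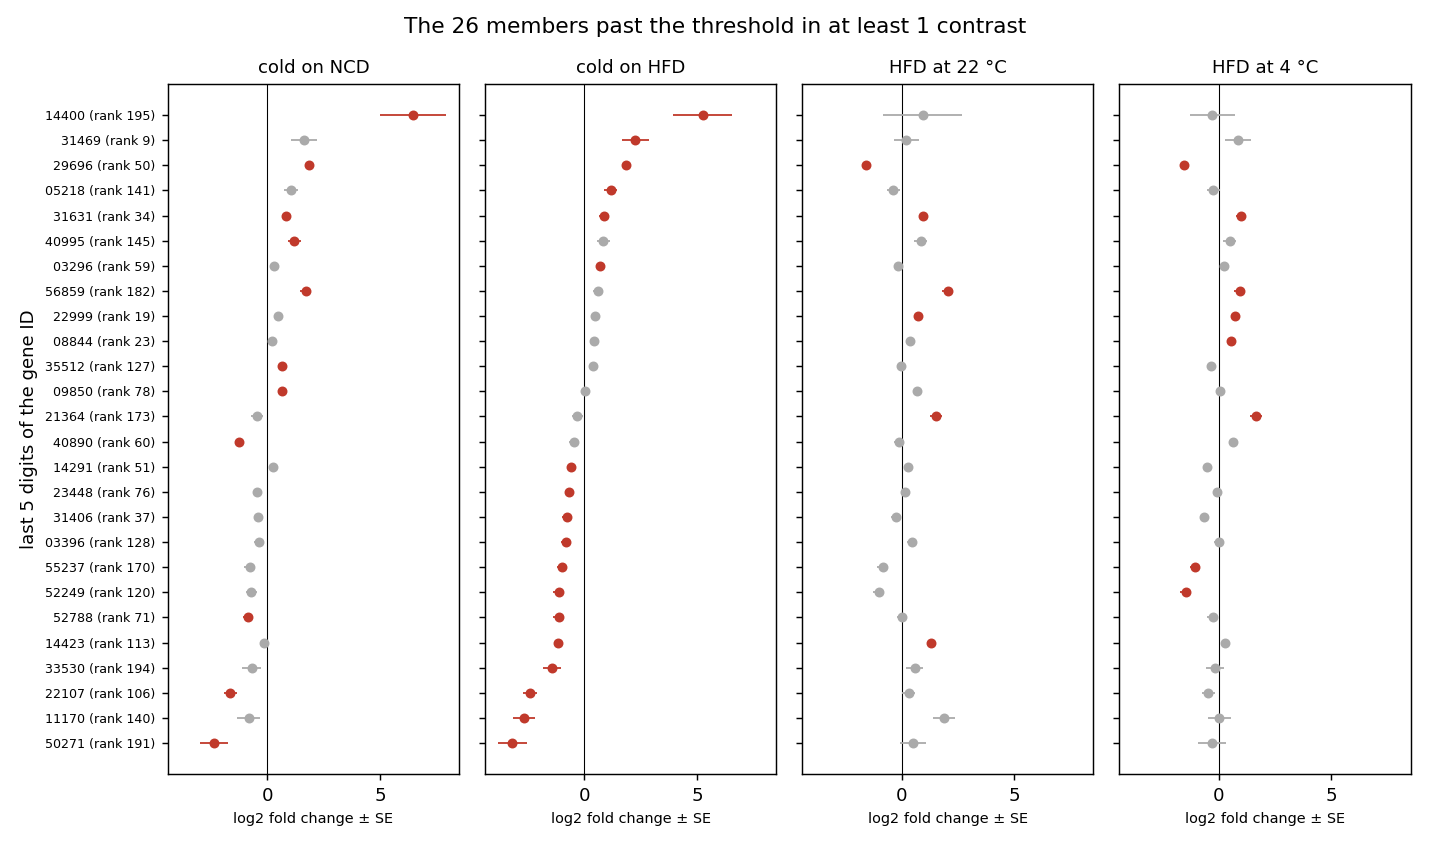
Log2 fold change ± SE of the 26 members that passed in at least 1 of the 4 contrasts, with those that passed marked. QNCMUSG00029696 and QNCMUSG00031631 passed in all 4 panels.

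QNCMUSG00029696 (rank 50) passed in all 4 contrasts. Its interval, chr19:55198099-55251938, runs from Gucy2g, a guanylate cyclase gene, to the start of Acsl5, whose enzyme activates long-chain fatty acids. It had 17.7, 19.1 and 16.5 CPM on NCD at 22 °C and 62.8, 64.03 and 65.1 at 4 °C. It had 8.05, 4.91 and 5.14 CPM on HFD at 22 °C and 21.7, 21.7 and 21.4 at 4 °C. The groups did not overlap in any contrast. It rose in the cold by 1.85 ± 0.16 on NCD (adjusted p = 0.000274) and 1.85 ± 0.16 on HFD (adjusted p = 0.000168). It was lower on HFD, with −1.57 ± 0.16 at 22 °C (adjusted p = 0.00116) and −1.57 ± 0.16 at 4 °C (adjusted p = 0.000679). All 4 calls held in the 12 fits that each left out 1 library. In batch 1 alone the call for HFD at 22 °C was lost (adjusted p = 0.0518).

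Acsl5 (chr19:55251938-55297720, plus strand), in the next row, had 838, 716 and 852 CPM on NCD at 22 °C and 1990.3, 1841 and 2404 at 4 °C. It had 482, 322 and 329 CPM on HFD at 22 °C and 632, 653 and 786 at 4 °C. It passed in the same direction in all 4 contrasts, with 1.37 ± 0.18 and 0.87 ± 0.18 for cold on NCD and HFD, and −1.09 ± 0.18 and −1.59 ± 0.18 for HFD at 22 °C and 4 °C. Whether both rows count reads of 1 transcript was not tested.

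**Figure D4:**
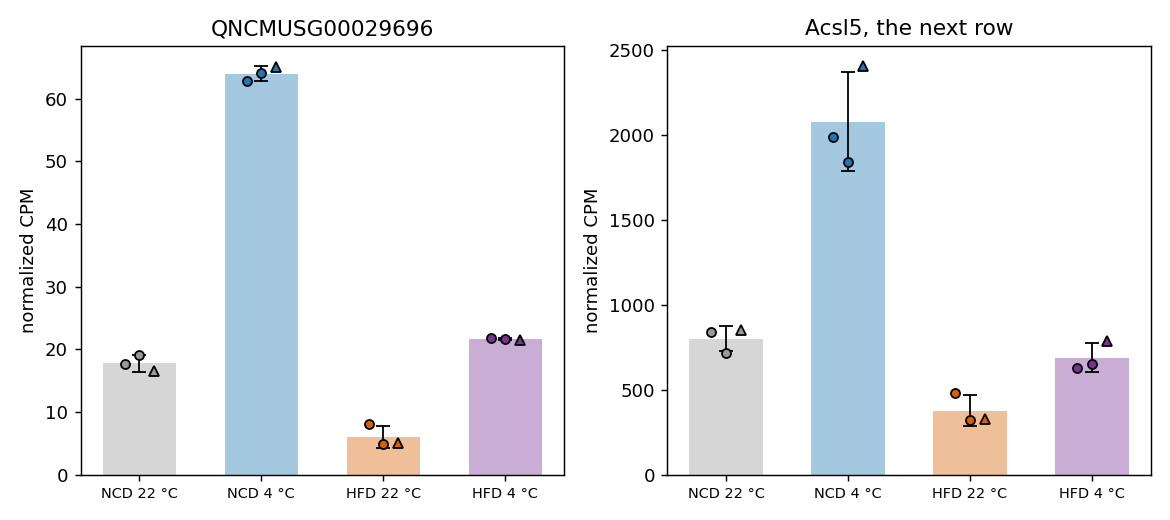
Normalized CPM of QNCMUSG00029696 and Acsl5 by group, with the mean and SD of 3 libraries and a point for each library. Both are highest on NCD at 4 °C and lowest on HFD at 22 °C.

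QNCMUSG00031631 (rank 34, between Gm13710 and Ctnnd1, the gene of the adhesion protein p120 catenin) rose in all 4 contrasts. It had 25.6, 17.5 and 30.9 CPM on NCD at 22 °C and 43.6, 41.8 and 47.9 at 4 °C. It had 44.3, 54.1 and 47.02 CPM on HFD at 22 °C and 101, 63.2 and 97.7 at 4 °C. The groups did not overlap in any contrast. The rises were 0.85 ± 0.21 and 0.85 ± 0.21 for cold on NCD and HFD (adjusted p = 0.0356 and 0.0257). They were 0.97 ± 0.21 and 0.97 ± 0.21 for HFD at 22 °C and 4 °C (adjusted p = 0.0432 and 0.0272). The call for cold on NCD was lost without any of NCD 22 °C replicates 1 and 2, NCD 4 °C replicates 1, 2 and 3 or HFD 4 °C replicates 1 and 3 (adjusted p 0.0514 to 0.108). That for cold on HFD was lost without any of HFD 22 °C replicates 1 and 3 or HFD 4 °C replicates 1 and 3 (adjusted p 0.0740 to 0.0875). That for HFD at 22 °C was lost in 11 of 12 fits that left out 1 library (adjusted p 0.0525 to 0.144), and held only without HFD 4 °C replicate 2. That for HFD at 4 °C was lost without any of NCD 4 °C replicates 1, 2 and 3 or HFD 4 °C replicates 1 and 3 (adjusted p 0.0640 to 0.0992). QNCMUSG00031634, a member 3 rows away in the same interval, and Ctnnd1 passed in none of the 4.

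Among members near the limit of the ranking, QNCMUSG00056859 (rank 182, between Gm5122 and Gm33699) was lowest on NCD at 22 °C. It had 1.80, 1.86 and 1.62 CPM on NCD at 22 °C and 5.91, 5.53 and 5.63 at 4 °C. It had 7.86, 6.12 and 7.68 CPM on HFD at 22 °C and 14.6, 11.1 and 6.92 at 4 °C. The groups overlapped only for cold on HFD. On NCD at 22 °C no library exceeded 1.86 CPM, under the 5.88 CPM of the last member of the ranking. The member entered largely through its HFD libraries, so its rises follow in part from the choice of members. It rose by 1.70 ± 0.25 with cold on NCD (adjusted p = 0.00311) and by 2.04 ± 0.25 with HFD at 22 °C (adjusted p = 0.00280), and both calls held in all 12 fits that left out 1 library. The rise of 0.93 ± 0.23 with HFD at 4 °C (adjusted p = 0.0431) was lost in 11 of 12 fits that left out 1 library (adjusted p 0.0511 to 0.136), and held only without HFD 4 °C replicate 3. Gm33699, a noncoding gene in the next row, rose with HFD at 22 °C by 2.10 ± 0.48.

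QNCMUSG00040995 (rank 145), in the 3880-base interval after the interferon-induced gene Isg15, had 3.55, 4.01 and 4.09 CPM on NCD at 22 °C and 5.62, 12.01 and 9.30 at 4 °C. The groups did not overlap, and the rise was 1.21 ± 0.28 (adjusted p = 0.0258). On NCD at 22 °C no library exceeded 4.09 CPM, under the 5.88 CPM of the last member of the ranking. The rise therefore follows in part from the choice of members. The call was lost without any of NCD 22 °C replicates 1, 2 and 3 or NCD 4 °C replicates 2 and 3 (adjusted p 0.0651 to 0.0949). Isg15 differed by 0.04.

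QNCMUSG00005218 (rank 141), in front of Pfkl, a phosphofructokinase gene of glycolysis, had 4.77, 5.85 and 3.90 CPM on HFD at 22 °C and 5.94, 14.2 and 12.3 at 4 °C. The groups did not overlap, with the lowest cold value just above the highest at 22 °C. That highest value, 5.85 CPM, was under the 5.88 CPM of the last member of the ranking. The rise therefore follows in part from the choice of members. The rise was 1.17 ± 0.30 (adjusted p = 0.0294), and the call was lost without any of HFD 22 °C replicates 1 and 3 or HFD 4 °C replicates 2 and 3 (adjusted p 0.0729 to 0.0971). On NCD it had 4.91, 6.34 and 7.27 CPM at 22 °C and 10.6, 12.7 and 15.1 at 4 °C, also without overlap, a difference of 1.05 ± 0.30 that did not pass (adjusted p = 0.0565). Pfkl rose with cold on NCD by 0.81 ± 0.19.

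QNCMUSG00031469 (rank 9), in front of Hnrnpa3, an RNA-binding protein gene, had 78.4, 97.1 and 49.5 CPM on NCD at 22 °C and 173, 443 and 79.04 at 4 °C. It had 90.6, 114 and 56.1 CPM on HFD at 22 °C and 716, 268 and 265 at 4 °C. The groups overlapped on NCD and not on HFD, where the rise was 2.26 ± 0.60 (adjusted p = 0.0334). This call was lost without any of HFD 22 °C replicates 1, 2 and 3 or HFD 4 °C replicate 1 (adjusted p 0.0668 to 0.123).

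QNCMUSG00014400 (rank 195) lies 8 rows from Gadd45g, a stress-induced gene that rose with cold on both diets (1.63 ± 0.35 and 1.70 ± 0.35). It had 2, 4 and 4 counts on NCD at 22 °C and 59, 577 and 64 at 4 °C, and 1, 2 and 18 on HFD at 22 °C and 519, 94 and 175 at 4 °C. Every cold library was higher. At 22 °C it had 0.0644 to 0.508 CPM, so it entered the ranking through its cold libraries and its rise is a description that follows in part from the choice of members. Of its summed CPM, 47.4% came from NCD 4 °C replicate 2. The call for cold on NCD was lost without any of NCD 22 °C replicates 1, 2 and 3 or NCD 4 °C replicate 2 (adjusted p 0.0606 to 0.10). That for cold on HFD was lost without any of HFD 22 °C replicates 1, 2 and 3 or HFD 4 °C replicate 1 (adjusted p 0.0603 to 0.0897).

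In other members 1 library held a large share of the summed CPM and no contrast passed. QNCMUSG00044040 (rank 12, between the chemokine gene Ccl24 and Rhbdd2) had 865 CPM in HFD 4 °C replicate 1, 58.3% of its sum, and 25 to 171 CPM in the other 11 libraries. QNCMUSG00034407 (rank 28, after the peroxisome gene Pex2) had 347 CPM in HFD 22 °C replicate 3, 47.8% of its sum, and 5.85 to 84.2 CPM elsewhere.

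Calls that held whichever library was left out were also found among the falls in the cold. QNCMUSG00022107 (rank 106) lies between Cpn2, a gene of the plasma enzyme carboxypeptidase N, and Lrrc15 at chr16:30256378-30269302. It had 14.2, 18.9 and 20.01 CPM on NCD at 22 °C and 4.99, 5.94 and 6.11 at 4 °C. It had 19, 29.2 and 18.1 CPM on HFD at 22 °C and 2.84, 6.30 and 3.29 at 4 °C. Cold and warm groups did not overlap on either diet. It fell by 1.64 ± 0.29 on NCD (adjusted p = 0.00808) and fell by 2.42 ± 0.30 on HFD (adjusted p = 0.00105), and both calls held in all 12 fits that left out 1 library. Cpn2 went the other way on NCD, with a rise of 0.71 ± 0.18.

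QNCMUSG00050271 (rank 191) has an interval, chr7:78254296-78560635, that lies inside Ntrk3 (chr7:78175959-78738012), the receptor gene of neurotrophin 3. It had 9.39, 8.95 and 8.55 CPM on NCD at 22 °C and 3.78, 0.530 and 0.971 at 4 °C. It had 15.98, 15.1 and 7.48 CPM on HFD at 22 °C and 1.04, 2.42 and 0.769 at 4 °C. Every cold library was below every library at 22 °C. The cold libraries had at most 3.78 CPM, so the member entered the ranking through the libraries at 22 °C. Its fall is a description that follows in part from the choice of members. The fall was −2.38 ± 0.62 on NCD (adjusted p = 0.0405) and −3.21 ± 0.63 on HFD (adjusted p = 0.00910). The call on HFD held in all 12 fits that left out 1 library, and that on NCD was lost without any of NCD 22 °C replicates 1, 2 and 3, NCD 4 °C replicates 2 and 3 or HFD 22 °C replicates 1 and 2 (adjusted p 0.0529 to 0.117).

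Ntrk3 had 512, 399.95 and 379 CPM on NCD at 22 °C and 209.9, 78.9 and 94.7 at 4 °C. It had 511, 312 and 324 CPM on HFD at 22 °C and 28.2, 70.6 and 22.5 at 4 °C. It fell with cold on both diets as well (−1.75 ± 0.45 and −3.24 ± 0.48). Reads of overlapping genes may be split between their rows by the counting.

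QNCMUSG00011170 (rank 140), in front of Nampt, whose enzyme makes a precursor of NAD, had 4.73, 6.51 and 6.12 CPM on NCD at 22 °C and 1.43, 3.83 and 4.36 at 4 °C. It had 13.2, 35.4 and 15.6 CPM on HFD at 22 °C and 1.80, 5.46 and 2.73 at 4 °C. The groups did not overlap on either diet. It fell on HFD (−2.69 ± 0.51, adjusted p = 0.00752), a call that held in all 12 fits that left out 1 library, and the difference of −0.83 ± 0.50 on NCD did not pass (adjusted p = 0.373). The test of the difference between the diets gave −1.85 ± 0.70 (adjusted p = 0.698). Nampt passed in neither cold contrast. Outside HFD at 22 °C, QNCMUSG00011170 had 1.43 to 6.51 CPM. It entered the ranking largely through that group, so its fall on HFD follows in part from the choice of members.

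QNCMUSG00040890 (rank 60) lies in front of Prdm16os and 12 rows below Prdm16, a regulator of brown fat identity. It had 24.6, 28.6 and 32.4 CPM on NCD at 22 °C and 15.9, 11.4 and 9.18 at 4 °C. It had 24.5, 32.6 and 22.4 CPM on HFD at 22 °C and 17.5, 21.5 and 17.7 at 4 °C. It fell on NCD (−1.24 ± 0.21, adjusted p = 0.00663), a call that held in all 12 fits that left out 1 library. The difference on HFD, −0.48 ± 0.21, did not pass (adjusted p = 0.156).

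QNCMUSG00052788 (rank 71), between Gm26714 and Ido2, a gene of tryptophan breakdown, had 29.9, 25.2 and 24.9 CPM on NCD at 22 °C and 15.5, 13.1 and 15.1 at 4 °C. It had 36.3, 27.2 and 16.9 CPM on HFD at 22 °C and 10.8, 14.05 and 11.3 at 4 °C. Cold and warm groups did not overlap. It fell by 0.87 ± 0.23 on NCD and fell by 1.15 ± 0.23 on HFD (adjusted p = 0.0424 and 0.00958). The call on HFD held in all 12 fits that left out 1 library, and that on NCD was lost in 10 of 12 fits that left out 1 library (adjusted p 0.0511 to 0.139), and held only without HFD 22 °C replicates 1 and 3.

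QNCMUSG00033530 (rank 194), after the kinase gene Src, had 7.21, 6.22 and 16.4 CPM on HFD at 22 °C and 3.96, 4.98 and 2.28 at 4 °C. The groups did not overlap, and the highest value was in HFD 22 °C replicate 3. Its fall with cold on HFD was −1.43 ± 0.40 (adjusted p = 0.0426). The cold libraries on HFD had at most 4.98 CPM, under the 5.88 CPM of the last member of the ranking. The fall therefore follows in part from the choice of members. The call was lost in 9 of 12 fits that left out 1 library (adjusted p 0.0533 to 0.164), and held only without NCD 4 °C replicate 3, HFD 22 °C replicate 2 or HFD 4 °C replicate 2, and was lost with batch as a term (adjusted p = 0.0539).

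HFD raised QNCMUSG00021364 (rank 173), which lies after Hoxc4, a transcription factor gene of body patterning. At 22 °C it had 2.86, 3.02 and 5.53 CPM on NCD and 9.86, 11.8 and 11.7 on HFD. At 4 °C it had 2.52, 3.24 and 2.70 CPM on NCD and 9.05, 11.01 and 6.85 on HFD. The diets did not overlap at either temperature. All NCD libraries were under the 5.88 CPM of rank 200, so the member entered the ranking through its HFD libraries. Its rise is a description that follows in part from the choice of members. The rise was 1.53 ± 0.26 at 22 °C (adjusted p = 0.0141) and 1.67 ± 0.27 at 4 °C (adjusted p = 0.00698). The call at 4 °C held in all 12 fits that left out 1 library, and that at 22 °C was lost without any of NCD 22 °C replicates 1 and 2 or HFD 22 °C replicate 2 (adjusted p 0.0565 to 0.0689). Hoxc4 rose with HFD at 4 °C (1.28 ± 0.21) and with cold on HFD (1.28 ± 0.21).

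QNCMUSG00022999 (rank 19) lies in an interval of 1046368 bases on chromosome 16, 7 rows above Ncam2, a cell adhesion gene. At 22 °C it had 47.03, 51.8 and 62.5 CPM on NCD and 78.9, 92.3 and 96.1 on HFD. At 4 °C it had 74.1, 74.9 and 74.2 CPM on NCD and 141, 94.2 and 130.5 on HFD. The diets did not overlap. It rose by 0.73 ± 0.15 and 0.71 ± 0.15 (adjusted p = 0.0365 and 0.0265). The call at 22 °C was lost in 10 of 12 fits that left out 1 library (adjusted p 0.0504 to 0.166), and held only without HFD 4 °C replicates 1 and 2. That at 4 °C was lost without any of NCD 4 °C replicates 1, 2 and 3 or HFD 4 °C replicates 1 and 3 (adjusted p 0.0546 to 0.0963). Ncam2 starts at chr16:81200697, beyond the end of the interval at 79999376, and had 0.174 to 3.39 CPM. It rose with HFD at 4 °C by 2.06 ± 0.48. Chodl, the nearest tested gene above, differed by 0.35 ± 1.30 in this contrast and did not pass (adjusted p = 0.917).

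QNCMUSG00008844 and QNCMUSG00008845 (ranks 23 and 126) stand in successive rows after Gm11205. At 4 °C the first had 66.8, 73.7 and 61.9 CPM on NCD and 96.96, 109 and 90.9 on HFD, and the second 7.91, 10.3 and 8.12 and 11.9, 15.2 and 11.4. The diets did not overlap in either. The first rose by 0.55 ± 0.13 (adjusted p = 0.0375), and the second differed by 0.55 ± 0.18 and did not pass (adjusted p = 0.101). The call of the first was lost in 8 of 12 fits that left out 1 library (adjusted p 0.0555 to 0.132), and held only without NCD 22 °C replicate 1, NCD 4 °C replicate 2 or HFD 22 °C replicates 2 and 3.

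QNCMUSG00052249 (rank 120) was lower both on HFD and in the cold. Its interval, chr8:3665754-3671188, ends at Fcor, a corepressor gene of the factor Foxo1, and the resistin gene Retn lies 2 rows above. It had 19.5, 16.3 and 17.5 CPM on NCD at 22 °C and 11.01, 12.2 and 9.49 at 4 °C. It had 8.44, 11.4 and 6.41 CPM on HFD at 22 °C and 4.23, 4.93 and 2.75 at 4 °C. The groups did not overlap in any contrast. Its HFD libraries at 4 °C had at most 4.93 CPM, under the 5.88 CPM of the last member of the ranking. The member entered through its other libraries, so its falls follow in part from the choice of members. It passed with HFD at 4 °C (−1.46 ± 0.25, adjusted p = 0.00868) and with cold on HFD (−1.14 ± 0.24, adjusted p = 0.0130). The first call held in all 12 fits that left out 1 library, and the second was lost without HFD 22 °C replicate 2 (adjusted p = 0.0516). The other contrasts, −0.70 ± 0.24 for cold on NCD and −1.03 ± 0.24 for HFD at 22 °C, did not pass (adjusted p = 0.0980 and 0.0521).

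Fcor had 19.1, 14.2 and 14.3 CPM on NCD at 22 °C and 12.9, 5.71 and 10.7 at 4 °C. It had 9.92, 5.85 and 6.04 CPM on HFD at 22 °C and 2.21, 4.36 and 3.75 at 4 °C. It fell with HFD at 4 °C (−1.50 ± 0.34). Retn fell with HFD at 22 °C (−2.28 ± 0.18) and rose with cold on HFD by 0.88 ± 0.18, where QNCMUSG00052249 fell.

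QNCMUSG00055237 (rank 170), between 6030466F02Rik and 4732419C18Rik, had 10.8, 11.6 and 13.5 CPM on NCD at 22 °C and 6.19, 5.71 and 8.83 at 4 °C. It had 4.38, 7.95 and 7.68 CPM on HFD at 22 °C and 3.06, 3.39 and 3.57 at 4 °C. The groups did not overlap in any contrast. On HFD at 4 °C no library exceeded 3.57 CPM, under the 5.88 CPM of the last member of the ranking. The member entered through its other libraries, so its falls follow in part from the choice of members. It fell with cold on HFD (−1 ± 0.24, adjusted p = 0.0222) and with HFD at 4 °C (−1.05 ± 0.24, adjusted p = 0.0321). The first call was lost without any of HFD 22 °C replicates 2 and 3 or HFD 4 °C replicates 1, 2 and 3 (adjusted p 0.0507 to 0.0797). The second was lost without any of NCD 22 °C replicate 2, NCD 4 °C replicates 1 and 3 or HFD 4 °C replicates 1, 2 and 3 (adjusted p 0.0507 to 0.117).

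No member passed the test of the interaction of diet and temperature in edgeR (background 0.00%), and 13 had an unadjusted p under 0.05 (6.5% against 6.52% of all genes). DESeq2 called 1, QNCMUSG00014423, against 0.347% of all genes. QNCMUSG00014423 (rank 113), in front of Ror2, a Wnt receptor gene, had 6.91, 8.43 and 8.13 CPM on NCD at 22 °C and 5.50, 7.71 and 7.91 at 4 °C. It had 17.97, 19.3 and 21.5 CPM on HFD at 22 °C and 10.5, 7.93 and 7.46 at 4 °C. HFD at 22 °C lay above the other groups.

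QNCMUSG00014423 rose with HFD at 22 °C by 1.33 ± 0.18 (adjusted p = 0.00506) and fell with cold on HFD (−1.19 ± 0.18, adjusted p = 0.00237). Both calls held in all 12 fits that left out 1 library. Its interaction was −1.04 ± 0.25 (adjusted p = 0.493). Ror2 rose with HFD at 4 °C, by 1.89 ± 0.38. QNCMUSG00009436 (rank 53, in the 2997 bases between Cisd3 and Pcgf2) and QNCMUSG00014291 (rank 51, between Fam120a and Fam120aos) had interactions of −0.89 ± 0.23 and −0.82 ± 0.22 (adjusted p = 0.525 for both).

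Over all 200 members the values leaned upward in 2 contrasts, which share the NCD 22 °C libraries as reference and are not independent. With HFD at 22 °C, 145 (72.5%) were higher and the median was 0.25, against 54.1% and 0.03 over all genes tested. With cold on NCD, 128 (64%) were higher and the median was 0.15, against 48.97% and −0.01. Of the shared reference, NCD 22 °C replicate 1 was the lowest library in 18.5% of the members, against 10.4% of all genes. Replicates 2 and 3 were the lowest in 4.5% and 10.5%, against 7.89% and 5.40%. The medians were −0.07 with cold on HFD and 0.06 with HFD in the cold, against −0.04 and 0.02. For cold on NCD the median was 0.08 without NCD 4 °C replicate 2 and 0.09 without either NCD 4 °C replicate 1 or NCD 22 °C replicate 1. For cold on HFD it was −0.20 without HFD 4 °C replicate 2, the lowest over the libraries left out, and −0.03 without HFD 22 °C replicate 3, the highest.

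HFD 22 °C replicate 3 was the highest of the 12 libraries in 66 members, 33% of them against 17.3% of all genes. Without it the median for HFD at 22 °C was 0.15, with 141 members higher, and in batch 1 alone it was 0.15. Skeletal muscle markers were highest in this library, at 15782 summed CPM, and nearly as high in NCD 22 °C replicate 2, at 15062. That second library was the highest in 2.5% of the members, against 5.99% of all genes. The summed level of 8 named nuclear or structural noncoding RNAs was 9869.8 CPM in HFD 22 °C replicate 3, against 3827 to 6685 in the others. Most of this sum was Malat1 (6029 CPM) and Neat1 (3518 CPM). The part of either in the median was not tested. HFD 4 °C replicate 1 was the highest in 37 members, 18.5% against 13.9%. The median for HFD at 4 °C was −0.04 without it and −0.06 without NCD 4 °C replicate 3. It was 0.01 without HFD 4 °C replicate 2, 0.13 without NCD 4 °C replicate 2 and 0.17 without HFD 4 °C replicate 3.

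**Figure D5:**
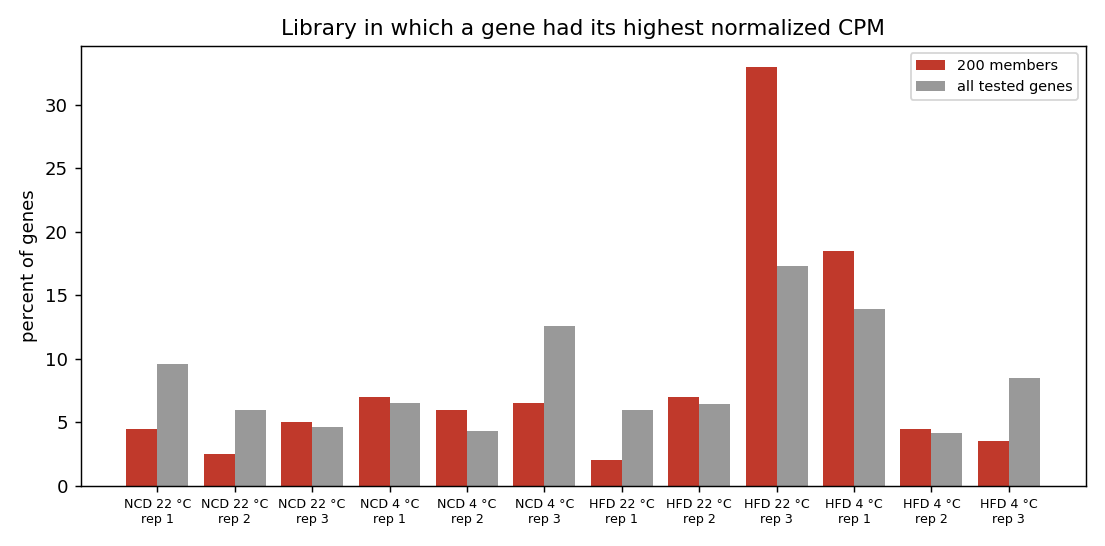
Percent of the 200 members and of all tested genes that had their highest normalized CPM in each of the 12 libraries. HFD 22 °C replicate 3 holds the highest value of 33.0% of the members and HFD 4 °C replicate 1 that of 18.5%.

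Members were set beside their neighbours, the nearest tested Ensembl genes above and below. Of 399 such pairs, the share that changed in the same direction with cold on NCD was 54.9% (49.9% to 59.8%) against 53.1% of 14403 pairs of successive tested Ensembl genes (exact binomial 95% interval, counting error only). With cold on HFD it was 58.6% (53.6% to 63.5%) against 53.4%. With HFD it was 58.1% (53.1% to 63.03%) against 53.4% at 22 °C and 60.2% (55.2% to 64.99%) against 54.1% at 4 °C. The share among all pairs lay inside the members' interval for cold on NCD and HFD at 22 °C and below it in the other contrasts, and the difference was not tested. Pearson's r of the log2 fold changes was 0.11 to 0.20 for the members and 0.08 to 0.09 for all pairs. Both measures are across genes, which share the libraries and are not independent.

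Named genes of the same tissue were compared from lists. Of 13 abundant nuclear or structural noncoding RNAs, 8 were in the table and 0 of these passed in any contrast, with medians from −0.16 to 0.18. Of the 3 lncRNAs the study names for cold, Lncbate10 and Ctcflos rose on both diets, by 3.47 and 1.61 on NCD and by 2.56 and 0.86 on HFD. Gm15551 fell on HFD (−2.39). On NCD its difference of −1.80 did not pass (adjusted p = 0.0574), though every cold library was below every library at 22 °C. The study, with its own test, reports a significant repression of Gm15551 by cold. That list was chosen in the study on these libraries. Of 6 thermogenic genes, 5 rose with cold on NCD and 4 on HFD.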

How the data were processed

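Total RNA of iBAT was measured in 12 libraries. Per the study's methods, the authors depleted ribosomal RNA, filtered reads with cutadapt and quantified them with salmon against transcripts of GENCODE M22 combined with RNAcentral 5 (GRCm38). The deposited values are whole-number counts per gene, not normalized. Salmon divides reads that fit several transcripts by a model, so counts of near-identical or overlapping genes are uncertain. Genes were filtered with filterByExpr (minimum count 10), scaled by TMM and fitted as 4 group means over all libraries with edgeR 4.0.16 (R 4.3.3; quasi-likelihood test, Benjamini-Hochberg over 16737 genes). Normalized CPM uses TMM library sizes. Intervals came from GENCODE M21, in which 33233 of 33328 Ensembl identifiers matched. Shares were compared by exact permutation tests (scipy 1.17.1). A floor of 3 counts covers counting error only.

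The members and gene lists were chosen with earlier results of these data known. The text names the 10 members of highest level, up to 5 largest rises and falls per contrast among those that passed, the ranks at the limit, 5 pairs of members within 3 rows, the nearest tested neighbours of these members, the 3 members with the largest share of their CPM in 1 library and the 3 with the smallest interaction p. The members that differed by batch, the intervals with printed sequences and QNCMUSG00003396 were picked after their values were seen. The replicate numbers were taken as pairs within each diet, since same-numbered libraries at 22 °C and 4 °C had correlated deviations (r = 0.219 to 0.456 on NCD and 0.155 to 0.386 on HFD). This rests on the data and not on the labels. Alternatives were other scalings and filters, batch and replicate terms, DESeq2 1.42.0 with apeglm 1.24.0, other numbers of members, and each library left out. A sequence withheld here is not reported.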

Additional observations from a re-analysis of the deposited data

How the results depend on the processing

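None of the 37 contrast calls of named members changed sign in any alternative run, and over all alternatives 693 refits kept a call and 181 lost it, 27 of the 37 being lost in batch 1 alone. Fewer libraries or other numbers of members explain part of what follows by construction, and other causes were not tested. For cold on NCD (11 members), 18 passed with the batch term, 18 with the replicate block, 22 with the replicate block within diet, 2 in batch 1 alone, 21 with DESeq2, and 5 and 21 among the first 100 and 400 genes. For cold on HFD (18), 4 passed in batch 1 alone, 8 with only the 6 libraries compared, 36 with DESeq2, and 8 and 38 among the first 100 and 400. For HFD at 22 °C (6), 19 passed with library totals, 12 with no filter, 11 with the replicate block, 2 in batch 1 alone, 21 with DESeq2, and 3 and 13 among the first 100 and 400. For HFD at 4 °C (8), 22 passed with library totals, 14 with the batch term, 16 with the replicate block, 2 in batch 1 alone, 2 with only the 6 libraries compared, 15 with DESeq2, and 4 and 13 among the first 100 and 400. For all 4 groups (5), 8 passed with library totals, 16 with no filter, 0 in batch 1 alone and 25 with DESeq2, which also called 1 interaction. The batch difference (19) reached 30 with no filter.

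With 1 library left out, 4 to 13 members passed for cold on NCD, 9 to 19 for cold on HFD, 3 to 7 for HFD at 22 °C, 3 to 13 for HFD at 4 °C, 1 to 5 for all 4 groups, 0 to 0 for the interaction and 12 to 20 for the batch. The lowest counts came without NCD 4 °C replicate 2 (cold on NCD), HFD 4 °C replicate 1 (cold on HFD), NCD 22 °C replicates 1 or 2 (HFD at 22 °C) and HFD 4 °C replicate 1 or NCD 4 °C replicates 1 or 3 (HFD at 4 °C). The difference in the members' share of counts ran from −1.02 to −0.603 points for cold on NCD, −1.09 to −0.514 for cold on HFD, 0.486 to 0.903 for HFD at 22 °C and 0.420 to 0.993 for HFD at 4 °C. Without the 5 highest members it was 0.0785, 0.0857, 0.153 and 0.160 in the same order, so the sign of both cold differences turned, and with TMM library sizes 0.120 and 0.0317 for the last 2. Pairs within 3 rows had the same direction in 65.1% for HFD at 4 °C. Beside the calls given above, the replicate block changed no call of a named member.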
